A study of Mus musculus with 12 samples.

Results

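The progenitor sort of the adult mouse dentate gyrus was compared with the stem and niche sorts at once, to find the transcripts that were highest or lowest in progenitor. The members were the 12 libraries of the series, all of which entered: 4 progenitor libraries on one side and 4 stem and 4 niche libraries on the other. The contrast was the progenitor mean minus the average of the stem and niche means, on the scale log2(RPKM + 1), where RPKM is the reads of a gene per kilobase of exon, scaled to a fixed library size. A gene was said to peak when it was also higher than stem and higher than niche, each tested on its own, and to dip when it was lower than both.

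All cells came from 8-week-old LPA1-GFP mice, which carry the transgene Tg(Lpar1-EGFP)GX193Gsat, rederived from FVB/N-Swiss Webster stock into C57BL/6. Green fluorescent protein (GFP) in these mice follows the regulatory sequence of Lpar1, a receptor for lysophosphatidic acid, so the transgene and not a lineage label defined the GFP-positive cells. Fresh tissue was sorted by fluorescence also for EGFR, the receptor for epidermal growth factor, and for Prominin-1, a membrane glycoprotein. Cells positive for GFP, EGFR and Prominin-1 together made the stem libraries. The progenitor libraries pooled GFP-positive cells of the other 3 marker combinations: EGFR alone, Prominin-1 alone, or neither. Niche libraries held GFP-negative cells. RNA of 1000 cells was amplified for each library. Whether replicates came from separate mice or from pools is not labelled. The p-values below therefore refer to library-to-library spread only, which can include technical spread.

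In the dentate gyrus, radial glia-like stem cells give rise to intermediate progenitors, which divide and pass through a neuroblast stage before they mature into granule neurons. Intermediate progenitors are known for the transcription factors Eomes and Neurog2, and neuroblasts for cytoskeletal proteins such as the neuronal tubulin Tubb3 and the stathmin Stmn2. Microglia, the resident macrophages of the brain, take up dying newborn cells in the same niche.

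The library totals implied by the values ran from 7597256 to 22854036 reads. Of 10749 listed genes, 10573 lay on the plus strand of the genome and 6 on the minus strand, and 170 had no position in the annotation. Genes such as Lpar1, Prom1 and Dcx were not analysed here, so each gene list is covered only in part. Across genes, progenitor replicate 1 stood apart from its group, with Spearman correlations of 0.848 to 0.857 to the other progenitor libraries, whose own pairs reached 0.977. Niche replicates correlated least, at 0.718 to 0.841. Alpha-globin reads took 33% of niche replicate 1 and between 2.62% and 10.9% of the other niche libraries. Levels below are RPKM scaled between libraries by trimmed means of M-values (TMM), and the median difference of all genes was then 0.10 on the log2 scale. It was 0.33 when libraries were scaled by their totals alone. Each RPKM was divided by the TMM factor of its library, 0.418 in niche replicate 1 and 0.821 to 1.25 in the others. Whether libraries of different groups overlap can depend on these factors. Of the sort markers, Egfr was tested: it stood at 1.095, 7.49, 3.84 and 9.98 RPKM in progenitor replicates 1 to 4, at 36.9, 24.7, 38.6 and 36.4 in stem and at 21.9, 8.65, 2.26 and 1.22 in niche, and it served to sort the cells, so its level is no finding.

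The contrast called 194 genes higher in progenitor, which is 2.32% of the 8360 genes tested, and 220 lower, which is 2.63% (limma, adjusted p under 0.05). These calls were of different kinds. Of the 194, 59 were peaks (0.706% of tested genes), 67 were called higher against niche only, 61 against stem only and 4 against neither, and 3 were higher than niche and lower than stem. Of the 220, 84 were dips (1.0% of tested genes), 81 were called against niche only, 53 against stem only and 2 against neither. The 4 progenitor libraries lay above all 8 others in 50 of the 59 peaks and below all 8 in 76 of the 84 dips. Over all tested genes, such a gap was present upward in 147 (1.76%) and downward in 127 (1.52%). With these 3, 65 genes lay between the other populations, called higher than one and lower than the other.

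**Figure D1:**
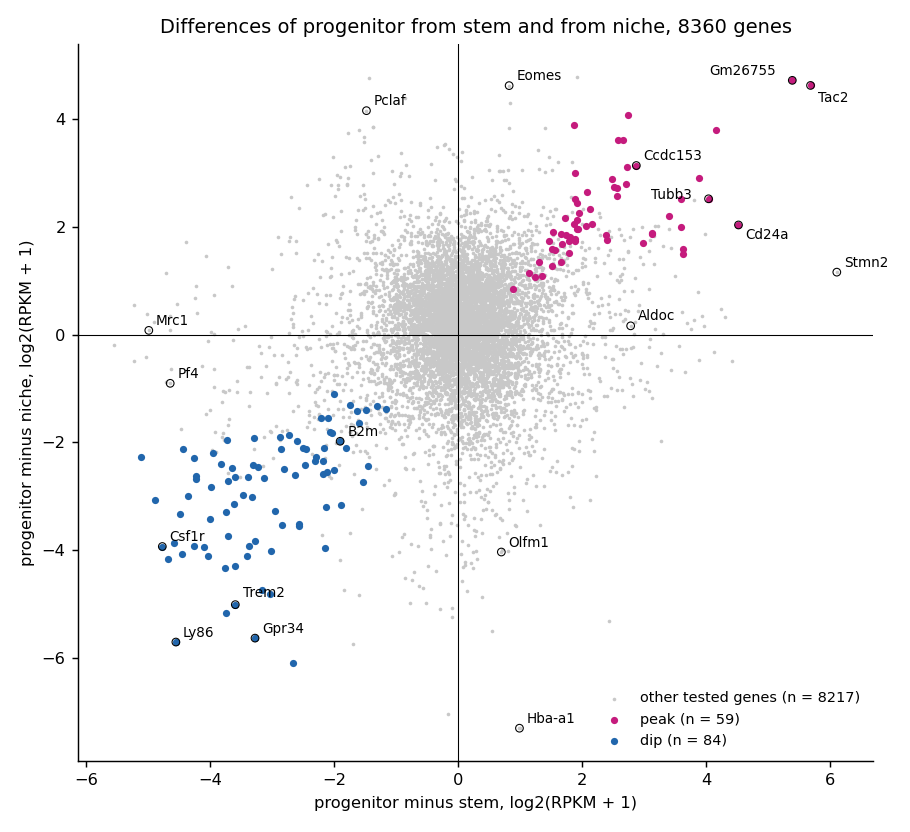
Each point is 1 of 8360 tested genes, with the difference of the progenitor mean from the stem mean on the horizontal axis and from the niche mean on the vertical axis, both in log2(RPKM + 1), n = 4 libraries a population. The 59 peaks fill the upper right and the 84 dips the lower left, while Stmn2 lies far to the right, Eomes and Pclaf high up, Mrc1 and Pf4 far to the left and Hba-a1 at the bottom.

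The number of calls depended on scaling and on single libraries. Of all calls of the contrast, 46.9% were higher with TMM, against 68.8% with library totals (419 higher, 190 lower), 56.9% with upper-quartile factors (264 and 200) and 63.7% with voom on recovered reads (331 and 189). Without niche replicate 1 the counts rose to 355 higher, 546 lower, 94 peaks and 147 dips. Higher calls fell to 126 without stem replicate 2 and to 108, 88 and 113 without progenitor replicates 2, 3 and 4. Lower calls fell to 144 and 135 without progenitor replicates 2 and 3, and dips to 54 without progenitor replicate 3. Peaks fell to 36, 36 and 38 without stem replicates 1, 2 and 4, to 32 and 33 without progenitor replicates 2 and 3, and stood at 39 without progenitor replicate 4. All 59 peaks remained above both populations and all 84 dips below both in each of the 21 alternatives run. These genes were chosen for those differences in the same libraries, so a kept direction was nearly fixed in advance and adds no support. Of the peaks, 23 kept their call in all 21, as did 43 of the dips.

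Transcripts of young neurons were among the peaks. Tac2 and Tubb3 stood well above both other sorts, Cd24a less far above niche, and Sstr2, a receptor listed with intermediate progenitors, joined them. Of 12 tested neuroblast genes, 3 peaked (2 to 5 in the alternatives, 5 with voom), 7 were higher by the contrast and none was lower, with a median difference of 1.95 against 0.10 over all tested genes. Over all tested genes, 0.706% peaked and 2.32% were higher. Of 11 tested intermediate progenitor genes, 2 peaked and 6 were higher, with a median of 1.63; Tac2 is on both lists. The lists and the comparison were chosen with earlier results of these data known, so the counts are a description.

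Tac2 (ENSMUSG00000025400, chr10:127724478-127731768 in GRCm38) encodes the precursor of neurokinin B, a tachykinin neuropeptide. It stood at 277, 143, 123 and 108 RPKM in progenitor replicates 1 to 4, at 2.88, 0.8899, 7.08 and 0.296 in stem and at 2.03, 20.8, 4.33 and 3.103 in niche. Every progenitor library exceeded every other library by a wide gap, the closest being niche replicate 2. The difference was 5.69 ± 0.66 from stem (SE, limma adjusted p = 0.000109) and 4.63 ± 0.66 from niche (0.000259). Like nearly all genes in the table, Tac2 and the other genes below lie on the plus strand. The 250 bases upstream of its start are shown because they hold the letters CAGCTG, a form of the E-box that proneural basic helix-loop-helix factors such as Neurog2 can bind; capitals mark the match, whose first base is at -22 from the start. Among genes with matched upstream sequence, CAGCTG was present in 12.5% of peaks, 25% of dips and 11.8% of tested genes. The Tac2 sequence is from RefSeq, build GRCm38.p6, chr10:127724228-127724477, plus strand.
Tac2: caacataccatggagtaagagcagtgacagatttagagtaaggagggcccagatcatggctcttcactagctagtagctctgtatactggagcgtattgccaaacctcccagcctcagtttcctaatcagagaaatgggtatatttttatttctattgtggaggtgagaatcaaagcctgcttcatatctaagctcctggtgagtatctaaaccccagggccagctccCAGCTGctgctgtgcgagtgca

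Tubb3 (ENSMUSG00000062380, chr8:123411424-123422015) encodes the tubulin typical of neurons. Its level was 1353, 617, 615 and 493 RPKM in progenitor, 49.1, 25.9, 70.8 and 34.8 in stem and 184, 98.9, 99.96 and 124 in niche. On the TMM scale the progenitor range lay wholly above the niche range and the niche range above the stem range. The gap between niche and stem depends on the scaling. Tubb3 differed by 4.04 ± 0.37 from stem (SE, limma adjusted p = 2.45e-05) and by 2.52 ± 0.37 from niche (0.000365). Cd24a (ENSMUSG00000047139, chr10:43578284-43584265), a surface glycoprotein of neuroblasts, followed the same order with more overlap: it stood at 354, 173, 158 and 101.1 RPKM in progenitor, 12.8, 7.295, 6.73 and 3.04 in stem and 127, 53.95, 24.5 and 18.7 in niche. On the TMM scale niche replicate 1 exceeded progenitor replicate 4. This order depends on the scaling, since their RPKM was divided by factors of 0.418 and 1.24. Cd24a differed by 4.52 ± 0.56 from stem (SE, limma adjusted p = 0.00018) and by 2.04 ± 0.56 from niche (0.0284). The call against niche was lost without progenitor replicate 1 (limma adjusted p = 0.0796), 2 (0.0703) or 3 (0.0654) and without niche replicate 3 (0.0871) or 4 (0.0757).

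Sstr2 (ENSMUSG00000047904, chr11:113619342-113626028), a receptor for somatostatin, was at 87.4, 40.4, 32.3 and 21.4 RPKM in progenitor, 0.174, 2.904, 1.88 and 3.29 in stem and 1.66, 2.72, 7.24 and 9.496 in niche, with no overlap between progenitor and the rest. Its differences were 3.89 ± 0.60 from stem (SE, limma adjusted p = 0.000878) and 2.91 ± 0.60 from niche (0.00462). Stmn2, a stathmin that regulates microtubules in growing neurites, came close to a peak. Its levels were 371, 214, 191 and 153 RPKM in progenitor, 3.13, 3.81, 1.94 and 0.776 in stem and 123, 124, 59.8 and 99.99 in niche. Progenitor exceeded all other libraries, yet against niche the difference of 1.16 ± 0.40 did not pass (SE, limma adjusted p = 0.072), while against stem it was 6.11 ± 0.40 (7.72e-07). Stmn2 passed against niche as well with the replicate number as a block, under either other scaling, with a pseudocount of 4 RPKM or with voom. Dpysl5, a collapsin response mediator of young neurons, was called against niche (3.08 ± 0.47, SE, limma adjusted p = 0.000453) and not against stem (1.30 ± 0.47, 0.129).

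Gm26755 (ENSMUSG00000097843, chr2:79453985-79461107), annotated as a long noncoding RNA, had the largest margin of all peaks, the margin being the smaller of the differences from stem and niche. Its levels were 830.4, 991, 971 and 736 RPKM in progenitor, 32.6, 19.1, 20.99 and 11.8 in stem and 19.2, 4.11, 98.1 and 117 in niche. Progenitor lay above all other libraries, and niche spread widely. Gm26755 differed by 5.39 ± 0.73 from stem (SE, limma adjusted p = 0.000325) and by 4.72 ± 0.73 from niche (0.000505). The exon length that its values imply is 154 bases, the smallest that gives whole reads, against 2657 annotated exon bases. The gene shares 154 exon bases, equal in number to its first exon, with Neurod1, a transcription factor of granule neuron differentiation on the minus strand, which was not analysed here. How the counting used strand is not given in the sources used here, so reads of the pair cannot be told apart. Of the 59 peaks, 15 (25.4%) share exon bases with a minus-strand gene, as do 30.8% of all tested genes.

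Genes of motile cilia and of the ventricle lining also peaked, of which Ccdc153 and Sntn lay at far lower RPKM than Tac2 or Tubb3. Ccdc153 (ENSMUSG00000070306, chr9:44240676-44247306), a coiled-coil gene used as an ependymal marker, was at 22.5, 5.76, 7.502 and 5.19 RPKM in progenitor, 0.0857, 1.51, 0.0607 and 0 in stem and 0, 0.0583, 0.146 and 0.139 in niche. Only stem replicate 2 came above 1 RPKM outside progenitor. The differences were 2.87 ± 0.47 from stem (SE, limma adjusted p = 0.00151) and 3.14 ± 0.47 from niche (0.000431). Sntn (ENSMUSG00000044772, chr14:13670876-13683148) encodes sentan, a protein of the tip of motile cilia. It stood at 5.82, 2.904, 1.98 and 2.25 RPKM in progenitor, 0.0754, 0.91, 0 and 0 in stem and 0.1596, 0.0513, 0.129 and 0.122 in niche, and differed by 1.74 ± 0.36 from stem (SE, limma adjusted p = 0.00666) and 1.85 ± 0.36 from niche (0.00306). The upstream sequence of Sntn holds GTTGCCATG, part of the X-box bound by RFX factors of ciliated cells with its first base at -66; capitals mark it. It is from RefSeq, build GRCm38.p6, chr14:13670626-13670875, plus strand.
Sntn: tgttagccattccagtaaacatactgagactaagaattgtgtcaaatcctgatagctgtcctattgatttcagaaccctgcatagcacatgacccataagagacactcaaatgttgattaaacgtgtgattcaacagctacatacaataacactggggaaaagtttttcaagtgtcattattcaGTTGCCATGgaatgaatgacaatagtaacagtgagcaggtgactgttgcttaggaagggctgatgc

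1500015O10Rik (ENSMUSG00000026051, chr1:43730602-43742578), also known as Ecrg4, encodes a secreted peptide precursor abundant in choroid plexus. It stood at 289, 109.8, 114 and 146 RPKM in progenitor, 14.4, 5.31, 19.5 and 10.8 in stem and 57.4, 43.7, 104 and 29.8 in niche, with the lowest progenitor library just above the highest niche library. Against niche the difference was 1.504 ± 0.456 (SE, limma adjusted p = 0.0439), and this call was lost (limma adjusted p in brackets) without any 1 of stem replicates 1 (0.0582) and 4 (0.0598), progenitor replicates 1 (0.106), 2 (0.0655), 3 (0.0716) and 4 (0.0976), and niche replicates 2 (0.1) and 4 (0.108). It was also lost with a pseudocount of 0.1 RPKM (0.054), no filter (0.053), no trend or robust spread (0.0608), voom (0.0566) or both progenitor and niche replicate 1 left out (0.0897). In the whole ependyma and choroid plexus list, 3 of 13 tested genes peaked (0.706% of all tested genes did). The other 10 passed the contrast in neither direction, and the median of the list was 0.42. Against niche, 3 of the 13 were called higher and 3 lower, as were 5.68% and 5.77% of all tested genes. The list was not uniform: Ttr, the thyroxine carrier of choroid plexus, picked after its values were seen as the bulk of the summed level, was at 219 ± 177 RPKM in progenitor against 7361 ± 2464 in niche (SD, n = 4), and its difference from niche was -5.31 ± 0.55 (SE, limma adjusted p = 2.01e-05). The summed level of the list was 310 to 650.2 RPKM in progenitor, 35.1 to 104 in stem and 4208 to 9690.1 in niche. The part of ependymal or choroid cells in these peaks was not tested. In sorted cells measured in bulk, more cells of a type and more RNA per cell cannot be told apart.

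**Figure D2:**
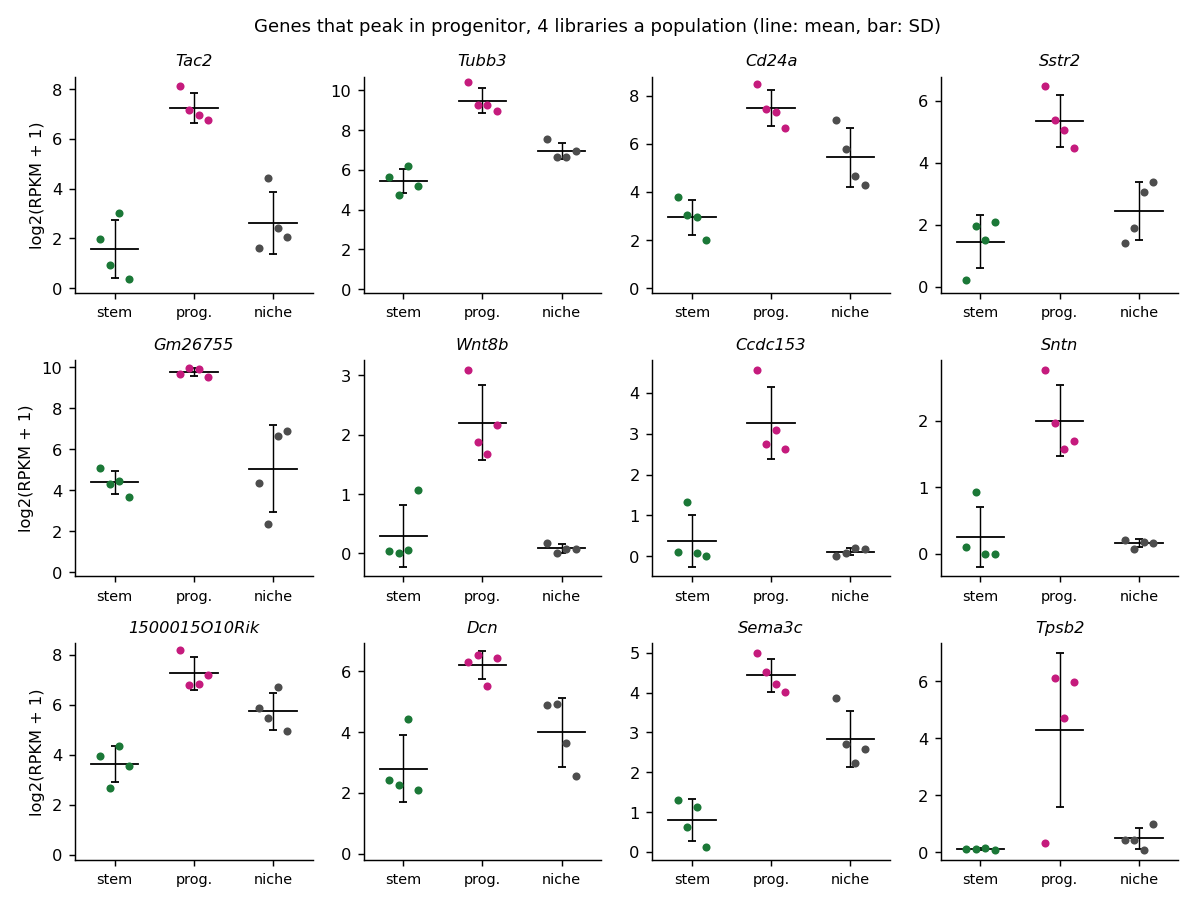
Levels of 12 peaks in each library, in log2(RPKM + 1) on axes that start at or just below 0, with the group mean (line) and SD (bar), n = 4 a population. Progenitor libraries lie above the rest in most panels, replicate 1 (leftmost point) is often the highest, and in Tpsb2 it is the single progenitor library near 0.

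Among signalling and matrix genes, Wnt8b (ENSMUSG00000036961, chr19:44493472-44514273), a secreted Wnt ligand listed with radial glia, was at 7.52, 2.69, 2.19 and 3.498 RPKM in progenitor, 0.0318, 0, 0.04499 and 1.099 in stem and 0.134, 0, 0.0542 and 0.0514 in niche. It was the 1 peak among 25 tested stem and radial glia genes (0.706% of all tested genes peaked). Of the 25, 5 were higher by the contrast (3 without progenitor replicate 4), against 2.32% of all tested genes. None was lower, and the median was 0.68. With progenitor replicate 1 and niche replicate 1 both left out, 8 were higher. Its differences were 1.91 ± 0.39 from stem (SE, limma adjusted p = 0.00596) and 2.12 ± 0.39 from niche (0.0018). Dcn (ENSMUSG00000019929, chr10:97479609-97518143), the matrix proteoglycan decorin, was at 78.7, 92.1, 45.02 and 85.9 RPKM in progenitor, 4.33, 3.77, 20.8 and 3.29 in stem and 28.9, 29.05, 11.4 and 4.896 in niche, with no overlap. It differed by 3.40 ± 0.60 from stem (SE, limma adjusted p = 0.00245) and 2.21 ± 0.60 from niche (0.0267). That last call was lost without progenitor replicate 1 (limma adjusted p = 0.0532), 2 (0.0808) or 4 (0.0781) and without niche replicate 3 (0.0675) or 4 (0.0668). Dcn was the 1 peak of 19 tested fibroblast and meninges genes, with a median of 1.21. Of the 19, 3 were higher and 1 lower, against 2.32% and 2.63% of all tested genes. These counts were unsteady: 6 were higher with library totals, with voom or without niche replicate 1, and 1 was higher at a pseudocount of 0.1 RPKM, when low genes were kept, or without stem replicate 2 or 4, any 1 progenitor library, or niche replicate 2 or 4. The count of lower genes ranged from 0 to 2. Their summed level was 153 to 411 RPKM in progenitor, 45.1 to 163 in stem and 131 to 424 in niche, and the part of fibroblasts was not tested.

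Sema3c (ENSMUSG00000028780, chr5:17574281-17730268), a secreted axon guidance cue, was at 30.9, 21.7, 17.5 and 15.3 RPKM in progenitor, 1.48, 0.543, 1.19 and 0.0972 in stem and 13.5, 5.53, 3.67 and 5.02 in niche. Its difference was 3.63 ± 0.48 from stem (SE, limma adjusted p = 0.000263) and 1.59 ± 0.48 from niche (0.0427). Against niche the adjusted p rose to 0.0539 to 0.11 when any library other than niche replicate 1 was left out, and to 0.136 with a pseudocount of 0.1 RPKM. Sema3c was the 1 peak of 33 tested axon guidance genes, while 0.706% of all tested genes peaked. The median of the list was -0.15 and turned positive with library totals, with a pseudocount of 0.1 RPKM and with voom. Cntnap2, an adhesion protein of axons on the same list, was at 37.1, 18.03, 14.7 and 15.6 RPKM in progenitor, 0.778, 0.632, 1.42 and 1.099 in stem and 0.2403, 11.9, 5.07 and 7.19 in niche. It passed against stem (3.41 ± 0.62, SE, limma adjusted p = 0.00318) but not against niche (1.97 ± 0.62, 0.0524). Cntnap2 stayed short of a peak in 16 of 21 alternatives. Its class changed with library totals, upper-quartile factors, a pseudocount of 4 RPKM, no trend or robust spread, or without niche replicate 2.

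Entpd2, Crabp1 and Mturn lay outside the rule for named genes and were picked after their values were seen, as peaks that kept their call in all 21 alternatives. Entpd2, an enzyme that breaks down extracellular ATP, was at 106, 185, 161 and 196 RPKM in progenitor, 17.4, 9.43, 9.03 and 14.5 in stem and 28.9, 34.9, 43.7 and 50.9 in niche, with no overlap. Crabp1, a carrier of retinoic acid, was at 6.94, 1.53, 2.55 and 1.097 RPKM in progenitor and at 0 in all 8 other libraries. Against a floor of 3 reads in each library of a group, the progenitor mean of 3.03 RPKM was at least 9.96-fold higher than stem and at least 6.35-fold higher than niche. The bound holds for this mean, which replicate 1 raised, and not for each library. Mturn, a gene of neuronal differentiation, was at 36.2, 38.5, 38.5 and 34.5 RPKM in progenitor, 10.5, 11.4, 10.1 and 10.1 in stem and 4.604, 7.51, 11.7 and 7.31 in niche. It shares 190 exon bases with Gm28402 on the minus strand.

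Tpsb2 (ENSMUSG00000033825, chr17:25366305-25369098) encodes a tryptase of mast cells and was high in 3 of the 4 progenitor libraries. It stood at 0.271, 68.3, 25.1 and 61.7 RPKM in progenitor, 0.0861, 0.07997, 0.122 and 0.0621 in stem and 0.365, 0.352, 0.0736 and 0.976 in niche, so that progenitor replicate 1 lay within the niche range. The difference was 4.16 ± 0.92 from stem (SE, limma adjusted p = 0.0106) and 3.79 ± 0.92 from niche (0.015), and it did not pass against niche without progenitor replicate 2 or 4 (0.0541 each) or with voom (0.0615). Progenitor replicate 1 differed from the others in the opposite sense in most peaks: it held the highest of the 4 progenitor values in 41 of the 59. How often it was the highest over all tested genes was not counted, so this cannot be read as a trait of peaks.

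Further peaks with large margins served varied roles. Vnn1, a pantetheinase, was at 11.1, 14.8, 13.4 and 18.6 RPKM in progenitor, and at 4.27, 0.0721, 3.99 and 0.476 in stem and 0.329, 0.0528, 0.199 and 0.44 in niche. Cldn3, a claudin of tight junctions, was at 31.3, 12.1, 8.64 and 5.18 in progenitor, 0, 0.137, 0 and 0.0533 in stem and 0.783, 0.101, 4.04 and 1.32 in niche. Tnni1, the troponin I of slow muscle, was at 21.8, 2.81, 8.38 and 3.19, 0.738, 0, 0.0872 and 0 and 0.1303, 0.0419, 0.105 and 0.0996 in the same order. Mrln, a micropeptide that acts on the calcium pump of muscle, was at 25.2, 4.24, 6.07 and 5.11 RPKM in progenitor, with 1.53 as its highest value elsewhere. Ppp1r36, which binds protein phosphatase 1, was at 18.1, 5.92, 6.64 and 9.85 in progenitor and at most 1.38 elsewhere. The noncoding genes Gm13589 and 2310016G11Rik ranged from 2.41 to 6.14 and from 2.28 to 8.65 RPKM in progenitor. 2310016G11Rik shares 60 exon bases with Myh14, and Cldn3 shares 40 with Wbscr25, both on the minus strand. 3300002A11Rik was at 14.8, 3.25, 5.38 and 1.89 RPKM in progenitor and at 0 in all 8 other libraries. Against the same floor, its progenitor mean of 6.34 RPKM, raised by replicate 1, was at least 11.1-fold higher than stem and at least 7.06-fold higher than niche. The gene shares 346 of 726 annotated exon bases with Gm47139 on the minus strand, and its values imply a length of 410. Gm12945 ranged from 3.78 to 12.2 RPKM in progenitor and shares 396 of 674 annotated exon bases with Tekt2, a gene of the ciliary axoneme on the minus strand. The length that the values of Gm12945 imply is 366 bases, so its RPKM rests on another set of bases than the annotation used for the overlap.

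The calls of 3 named peaks against stem were lost when single libraries were left out. Zfp57, a zinc finger protein that guards imprinted methylation, was at 3.99, 50.2, 36.99 and 23.4 RPKM in progenitor, 1.55, 1.12, 6.88 and 2.54 in stem and 0.778, 0.143, 1.996 and 0.723 in niche, and replicate 1 lay within the stem range. Its adjusted p against stem (limma) rose from 0.0245 to 0.0618 to 0.0949 without stem replicate 1, 2 or 4 or without progenitor replicate 2, 3 or 4, and to 0.0608 with a pseudocount of 0.1 RPKM and 0.0614 with voom. Ccdc190 was at 37.4, 25.4, 28.03 and 38.1 RPKM in progenitor and 12.7, 3.19, 5.44 and 8.82 in stem, and the call against stem (limma adjusted p = 0.049) was lost at 0.0554 to 0.171 without any library other than niche replicates 1 and 4, and also with library totals (0.0636), a pseudocount of 0.1 RPKM (0.0933) or no filter (0.0645). Its contrast was lost without progenitor replicate 1 (0.052) or 4 (0.0581). Ccdc190 shares 621 of its 1734 annotated exon bases with Gm15852 on the minus strand. The small nucleolar RNA Gm24463 was at 28.5, 22.1, 28.99 and 21.05 RPKM in progenitor, 10.3, 1.201, 3.66 and 0.932 in stem and 0, 0, 4.42 and 0 in niche, and its call against stem (limma adjusted p = 0.0163) was lost at 0.0507 to 0.069 without stem replicate 2 or 4 or progenitor replicate 1 or 3, at 0.135 with a pseudocount of 0.1 RPKM and at 0.0706 with voom.

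Macrophage and microglia genes were prominent among the dips. Of 14 tested genes of the microglia and macrophage list, 10 dipped and 13 were lower by the contrast, against 1.0% and 2.63% of all tested genes, and none was higher. Their median difference was -3.89. The summed level of the 14 genes was 373, 595, 325 and 582 RPKM in progenitor replicates 1 to 4, 5682, 16618, 4738 and 4087 in stem, and 7531, 7065, 3803 and 7919.7 in niche, with no overlap between progenitor and the rest. None of the 14 was at 0 in all progenitor libraries. The count of dips on the list was 9 or 10 in every one of the 21 alternatives.

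Csf1r, the receptor for the macrophage growth factor CSF-1, was at 6.196, 24.5, 17.2 and 28.6 RPKM in progenitor, 542, 1019, 325 and 307 in stem and 188, 313, 301.4 and 298 in niche. Progenitor lay below all other libraries, with a difference of -4.78 ± 0.45 from stem (SE, limma adjusted p = 2.45e-05) and -3.93 ± 0.45 from niche (4.46e-05). It shares 873 exon bases with Hmgxb3 on the minus strand. Trem2 (ENSMUSG00000023992, chr17:48346401-48354147), a lipid-sensing receptor of microglia, varied little between progenitor libraries, which stood at 7.12, 8.43, 6.15 and 8.695 RPKM against 96.5, 199.7, 93.6 and 60.5 in stem and 464, 295, 162 and 256 in niche. Its differences were -3.60 ± 0.38 from stem (SE, limma adjusted p = 5.84e-05) and -5.01 ± 0.38 from niche (2e-06). Tyrobp (ENSMUSG00000030579, chr7:30413760-30417585), the adaptor through which Trem2 signals, was at 53.7, 104, 58.4 and 95.4 RPKM in progenitor, 927, 3160.0, 1026 and 795 in stem and 1809.6, 1382, 814 and 1435 in niche. Stem and niche overlapped in Tyrobp, and progenitor overlapped with neither.

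Laptm5, a lysosomal membrane protein of blood cells, was at 13.1, 53.99, 36.3 and 61.1 RPKM in progenitor, 873, 2399, 656 and 557 in stem and 346, 785, 742 and 923 in niche. Ly86 (ENSMUSG00000021423, chr13:37345208-37419036), a partner of a Toll-like receptor family protein, had the largest margin of the dips. It was at 3.97, 26.1, 14.05 and 21.1 RPKM in progenitor, 299.8, 906, 258 and 194 in stem and 1314, 792, 388 and 819.8 in niche, -4.56 ± 0.55 from stem (SE, limma adjusted p = 0.000155) and -5.71 ± 0.55 from niche (1.34e-05). Ctss, the cysteine protease cathepsin S, was at 42.4, 63.3, 50.8 and 70.3 RPKM in progenitor, 758, 1864, 512 and 459 in stem and 1903, 2479, 1301 and 2811 in niche. Gpr34, a lysophosphatidylserine receptor of microglia, was at 5.51, 8.16, 8.28 and 9.21 RPKM in progenitor, 85.3, 206, 48.8 and 55.5 in stem and 1429, 509, 141 and 331 in niche, with niche above stem except for replicate 3, which lay within the stem range. Siglech, a lectin by which microglia are told from other macrophages, and Spi1 and Ctsc below were named after their values were seen. Siglech was at 0.265, 1.48, 2.23 and 1.47 RPKM in progenitor, 14.01, 26.3, 9.03 and 8.86 in stem and 174, 173, 113 and 156 in niche.

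Further dips with large margins had varied roles. Cd48, an adhesion partner of the receptor CD244, was at 0.986, 3.79, 2.63 and 3.47 RPKM in progenitor, 83.4, 189, 57.8 and 53.5 in stem and 233, 58.3, 20.5 and 22.3 in niche. The C-type lectins Clec4a2 and Clec4a4 ranged from 0.239 to 5.32 and from 0.412 to 3.17 RPKM in progenitor and were at 18.8 or more in every other library. Ccl4, a chemokine, was at 1.11, 23.6, 16.4 and 13.2 in progenitor, 191, 531, 99.1 and 42.3 in stem and 186, 326, 113 and 295 in niche. Pld4, a nuclease of endolysosomes, was at 8.48, 22.3, 12.2 and 22.8 in progenitor, 361, 909.8, 234 and 209.7 in stem and 473, 233, 168 and 291 in niche. Gm26542, annotated as antisense, ranged from 0.836 to 7.14 RPKM in progenitor and from 53.7 to 251 elsewhere. It shares 268 exon bases with Ltc4s, which makes the lipid mediator leukotriene C4, and 135 with Maml1, both on the minus strand, and reads of these genes cannot be told apart. All of these kept their dip in the 21 alternatives.

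Ptgs1 (ENSMUSG00000047250, chr2:36230426-36252272), the cyclooxygenase that starts prostaglandin synthesis and shares 148 exon bases with Gm43621, was at 0.758, 4.79, 3.29 and 5.69 RPKM in progenitor, 49.03, 129, 25.1 and 36.3 in stem and 88.7, 73.98, 64.5 and 98.2 in niche, -3.60 ± 0.51 from stem (SE, limma adjusted p = 0.000477) and -4.30 ± 0.51 from niche (6.29e-05). The thromboxane synthase Tbxas1 and Alox5ap, a helper of leukotriene synthesis, were picked after their values were seen. They ranged from 0.24 to 1.92 and from 11.8 to 15.9 RPKM in progenitor, and each dipped in all 21 alternatives. Tbxas1 shares 144 exon bases with Gm42962, and Alox5ap shares 189 with Gm19719, both on the minus strand. Spi1, which encodes the myeloid transcription factor PU.1, was at 0.0729, 0.331, 0.1597 and 0.403 RPKM in progenitor, 3.56, 15.05, 4.95 and 4.61 in stem and 6.96, 2.58, 3.08 and 5.85 in niche, below all other libraries. Since PU.1 binds sites that contain GAGGAAGT, the upstream sequences of Ptgs1 and of Ctsc, the lysosomal protease cathepsin C, are shown with this match in capitals, with the first base at -24 in Ptgs1 and at -151, on the opposite strand, in Ctsc. They are from RefSeq, build GRCm38.p6, chr2:36230176-36230425 and chr7:88277835-88278084, both on the plus strand.
Ptgs1: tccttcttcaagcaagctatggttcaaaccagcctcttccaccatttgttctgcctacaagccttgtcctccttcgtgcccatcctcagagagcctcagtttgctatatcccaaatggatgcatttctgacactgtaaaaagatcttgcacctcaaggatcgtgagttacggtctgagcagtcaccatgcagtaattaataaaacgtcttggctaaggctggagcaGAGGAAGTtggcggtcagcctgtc
Ctsc: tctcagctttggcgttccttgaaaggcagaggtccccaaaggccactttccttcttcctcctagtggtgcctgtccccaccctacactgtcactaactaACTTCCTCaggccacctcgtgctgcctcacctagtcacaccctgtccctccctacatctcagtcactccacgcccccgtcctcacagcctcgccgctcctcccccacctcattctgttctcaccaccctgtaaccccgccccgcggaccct

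**Figure D3:**
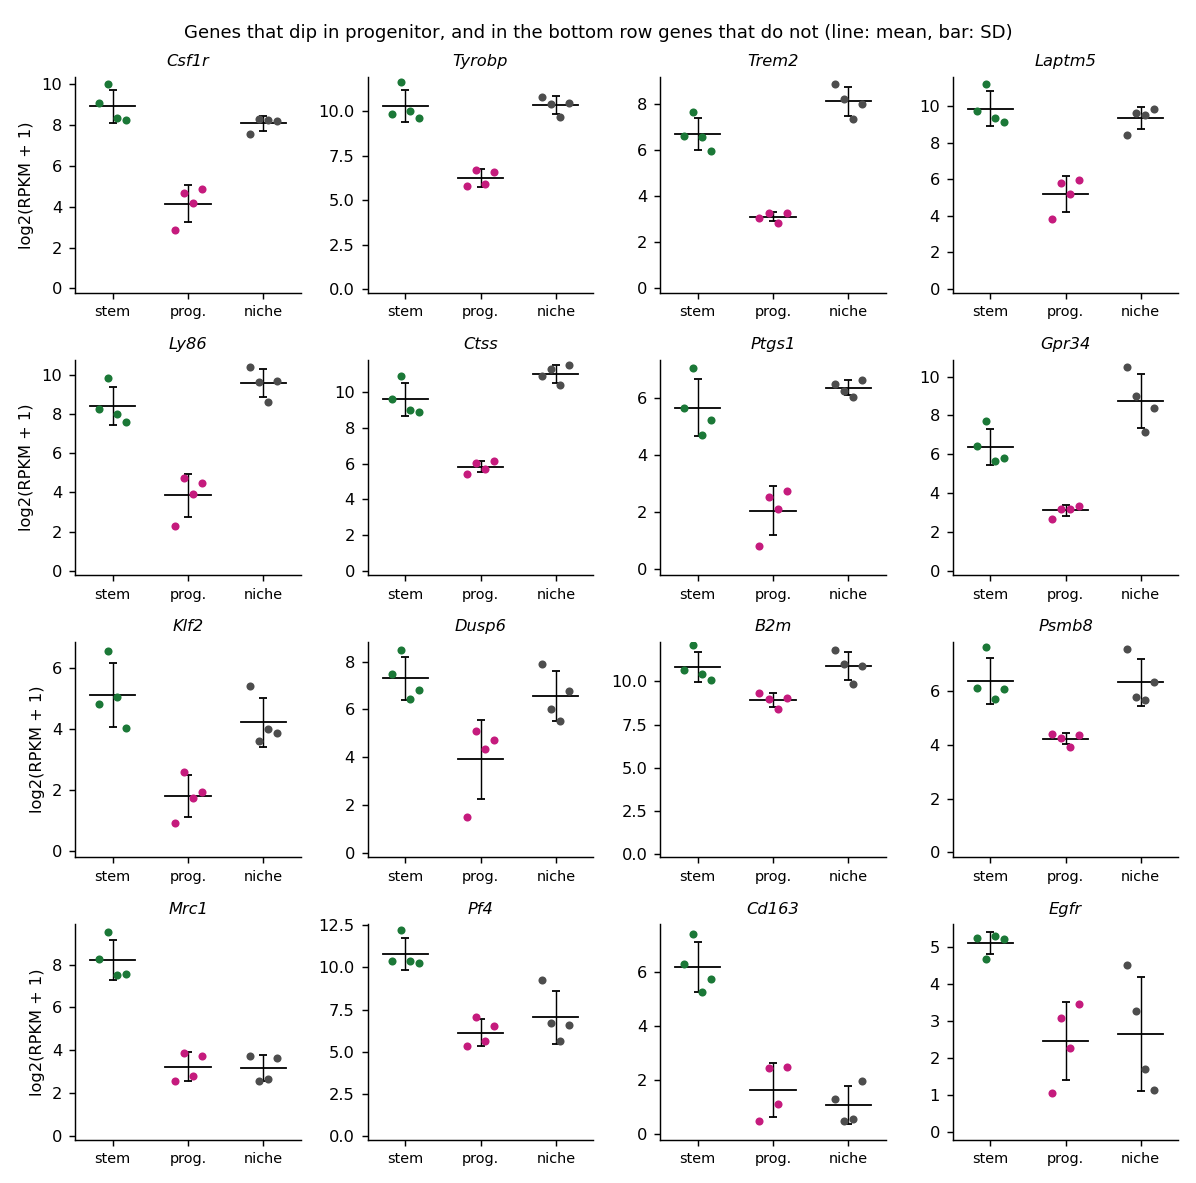
Levels of 16 genes in each library, in log2(RPKM + 1), with the group mean (line) and SD (bar), n = 4 a population. The upper 12 are dips, in which every progenitor library lies below the 8 others. In the bottom row Mrc1 and Cd163, and Pf4 apart from niche replicate 1, are in niche within or near the progenitor range, and Egfr is the sort marker.

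The 3 genes of the list that were lower by the contrast without a dip were Mrc1, Pf4 and Cd163. Mrc1, the mannose receptor of perivascular and meningeal macrophages, was at 4.78, 13.7, 5.84 and 12.04 RPKM in progenitor, 309.7, 740.3, 181 and 186 in stem and 12.1, 4.96, 5.296 and 11.3 in niche. Its difference from stem was -4.99 ± 0.50 (SE, limma adjusted p = 3.78e-05), while progenitor and niche differed by 0.08 ± 0.50 (0.937) with overlapping libraries. Pf4, a chemokine of the same macrophages, was at 39.02, 132, 50 and 90.9 RPKM in progenitor, 1309, 4698, 1318 and 1218 in stem and 620.1, 104, 48.04 and 94.1 in niche, -4.65 ± 0.66 from stem (SE, limma adjusted p = 0.000457) and -0.90 ± 0.66 from niche (0.398). Cd163, a scavenger receptor for haemoglobin, differed by -4.54 ± 0.60 from stem (0.000277) and 0.56 ± 0.60 from niche (0.588), and its call by the contrast (limma adjusted p = 0.0372) was lost in 11 of the 21 alternatives, at 0.0508 to 0.237. Cd74, the invariant chain of class II presentation and the last gene of the list, passed in neither pair: it averaged 159 ± 53.03 RPKM in progenitor, 629 ± 607 in stem and 763 ± 579.9 in niche (SD, n = 4).

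Presentation and response genes contributed a few dips. B2m (ENSMUSG00000060802, chr2:122147686-122153083), the light chain of MHC class I, was at 643, 496, 339.6 and 516 RPKM in progenitor, 1652, 4404, 1379 and 1103 in stem and 3610.3, 2079, 933 and 1933 in niche, -1.91 ± 0.44 from stem (SE, limma adjusted p = 0.0128) and -1.98 ± 0.44 from niche (0.00783). Psmb8, a subunit of the immunoproteasome that shares 498 exon bases with Gm20496, was at 20.1, 18.2, 14.2 and 19.5 in progenitor, 69.6, 202, 52.1 and 67.2 in stem and 193, 53.9, 50.2 and 80.1 in niche. These were the 2 dips of 24 tested genes of class I presentation and interferon response, of which no other passed the contrast, while 2 to 4 were lower in the alternatives. Over all tested genes, 1.0% dipped and 2.63% were lower. Among 13 immediate early and dissociation genes, 2 dipped (1 with library totals, with voom or without niche replicate 4), 3 were lower and none higher. The median was -1.03 by the contrast, -2.12 against stem and -0.37 against niche. Against stem 7 were called lower (3.71% of all tested genes were), and against niche 3 were (5.77%). Their summed level was 867 to 3276 RPKM in stem, highest in replicate 2, 89.5 to 438 in progenitor and 285 to 513 in niche. Klf2, a transcription factor of endothelium and leukocytes, was at 0.908, 5.02, 2.33 and 2.798 RPKM in progenitor, 26.9, 93.5, 32.02 and 15.3 in stem and 41.2, 11.2, 14.8 and 13.7 in niche. Dusp6, a phosphatase that limits ERK signalling, was at 1.78, 33.6, 19.1 and 25.3 in progenitor, 179.8, 353, 84.1 and 112 in stem and 238, 63.7, 44.9 and 107 in niche, and its call against niche (limma adjusted p = 0.0254) was lost with library totals (0.0554), with voom (0.0504) or without niche replicate 4 (0.0524). Progenitor replicate 1 held the lowest of the 4 progenitor values in 59 of the 84 dips. How often it was the lowest over all tested genes was not counted.

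Nearly all remaining calls of the contrast were called against one other population only. Intermediate progenitor transcription factors stood with the GFP-positive sorts. Eomes (ENSMUSG00000032446, chr9:118478212-118486132) was at 45.9, 33.2, 37.7 and 48.2 RPKM in progenitor, 21.5, 17.1, 23.1 and 30.9 in stem and 0.978, 0.292, 0.479 and 1.18 in niche. Against stem the difference was 0.82 ± 0.39 (SE, limma adjusted p = 0.287) although the ranges did not overlap, and against niche it was 4.63 ± 0.39 (4.18e-06). Neurog2 differed by 0.04 ± 0.40 from stem (0.981) and by 3.23 ± 0.40 from niche (7.2e-05). Of the 11 tested intermediate progenitor genes, 10 were called higher than niche (5.68% of all tested genes were), and 2 higher (3.39%) and 1 lower (3.71%) than stem. Sfrp1, a secreted Wnt inhibitor of radial glia, was at 54.4, 42.1, 33.7 and 49.8 RPKM in progenitor, 16.6, 9.75, 17.9 and 23.3 in stem and 0.945, 0.465, 10.5 and 1.998 in niche; its mean contrast was 2.62 ± 0.49 (SE, limma adjusted p = 0.00497), and it passed against niche (3.85 ± 0.56, 0.000341) and not against stem (1.40 ± 0.56, 0.185).

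Cell cycle genes lay between. Of 26 tested, none peaked or dipped, 16 were called lower than stem (3.71% of all tested genes were) and 19 higher than niche (5.68%). Their median was -1.71 against stem and 2.44 against niche. Their average in the contrast was thus small, with a median of 0.36 and 1 gene called higher (2.32% of all tested genes were). That gene was Pclaf, a clamp-binding factor of DNA replication, at 52.9, 41.6, 42.2 and 58.1 RPKM in progenitor, 114, 106, 177 and 162 in stem and 3.03, 0.763, 1.06 and 2.91 in niche, with no overlap among the 3 populations. Its difference was -1.48 ± 0.38 from stem (SE, limma adjusted p = 0.0234) and 4.16 ± 0.38 from niche (7.5e-06). The difference from stem did not pass without stem replicate 1 (0.0524), 3 (0.0938) or 4 (0.0892), without progenitor replicate 2 (0.0824) or 3 (0.0828), or with a pseudocount of 0.1 RPKM (0.0653). Its mean contrast (limma adjusted p = 0.0242) was lost at 0.0595 to 0.109 without stem replicate 1 or 2 or any 1 progenitor library.

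With TMM scaling, many genes of the oligodendrocyte, astrocyte and mural cell lists were called higher than stem and none higher than niche. With library totals, 1 astrocyte gene peaked. The median against niche then moved from -0.34 to 0.32 for oligodendrocyte, -0.20 to 0.40 for mural and -0.78 to -0.13 for astrocyte genes. Counts below are with TMM. Over all tested genes, 3.39% were called higher than stem, 5.68% higher than niche and 5.77% lower than niche, and 0.706% peaked. Of 19 tested oligodendrocyte genes, 15 were called higher than stem, none lower than niche and none peaked; their summed level was 2936 to 8846 RPKM in progenitor, 316 to 939.7 in stem and 3719.5 to 10350 in niche. Of 18 astrocyte genes, 11 were called higher than stem and 6 lower than niche (5.77% of all tested genes were). Aldoc, an aldolase of astrocytes and radial glia, was at 1529, 1544, 1428 and 1898 RPKM in progenitor, 312, 139, 284 and 229 in stem and 1681, 1525, 1097 and 1440.4 in niche, 2.78 ± 0.27 from stem (SE, limma adjusted p = 3.54e-05) and 0.16 ± 0.27 from niche (0.745). Of 24 mural cell genes, 10 were called higher than stem and 1 lower than niche. Vtn, the matrix protein vitronectin of pericytes, was at 1161, 557, 487 and 518 RPKM in progenitor, 130.4, 60.96, 38.2 and 7.72 in stem and 1160.0, 630.5, 428 and 339 in niche. The part of such cells in the progenitor libraries was not tested.

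Lists of mature neurons, oligodendrocyte precursors, endothelium and blood held genes called lower than niche. Of 16 mature neuron genes, 9 were called lower than niche and none lower than stem, and of 17 endothelial genes 11 and none. Over all tested genes, 5.77% were called lower than niche and 3.71% lower than stem. Olfm1, a secreted olfactomedin of neurons, was at 19.5, 14.1, 20.9 and 16.7 RPKM in progenitor, 16.4, 6.88, 10.9 and 9.67 in stem and 189.9, 343, 409 and 321 in niche, -4.03 ± 0.34 from niche (SE, limma adjusted p = 4.18e-06). Neu4, a sialidase of oligodendrocyte precursors, was at 0.0632, 1.02, 0.779 and 1.08 RPKM in progenitor, 1.29, 0.112, 0.0427 and 0.0145 in stem and 50.3, 51.4, 45.1 and 46.4 in niche, and 7 of the 10 tested genes of that list were lower than niche. The alpha-globin gene Hba-a1 was at 1542, 467, 289.8 and 264 RPKM in progenitor, 952, 296, 120.1 and 104 in stem and 491883, 83546, 17412 and 48845 in niche. Alas2, the heme enzyme of red cells, showed the same pattern, with 1826, 367, 96.8 and 213 RPKM in niche and at most 7.41 elsewhere.

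**Figure D4:**
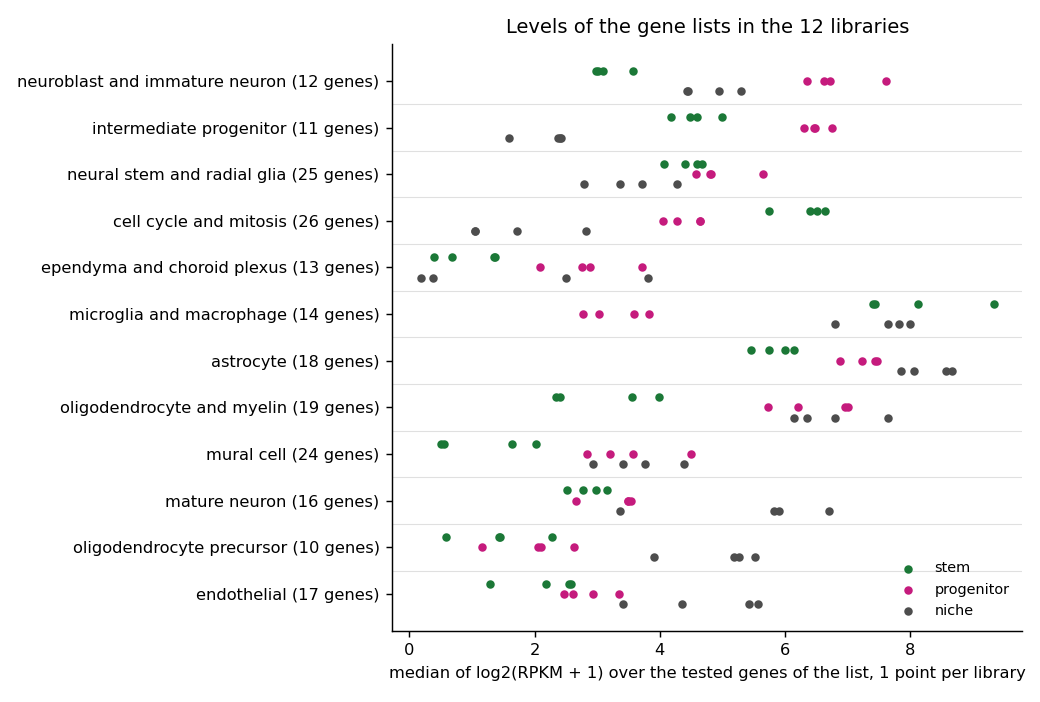
Median of log2(RPKM + 1) over the tested genes of 12 lists, 1 point per library, in stem (upper), progenitor (middle) and niche (lower). Progenitor libraries are the highest in the neuroblast list (6.36 to 7.62, against at most 5.30 elsewhere) and in the intermediate progenitor list, the lowest in the microglia list (2.77 to 3.83, against at least 6.80), and lie between the others in the cell cycle and astrocyte lists.

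The peaks and dips also differed in gene type, level and exon length. Of the 59 peaks, 44 (74.6%) were protein coding and 11 were long noncoding or antisense RNA genes, while of the 84 dips 79 (94%) were protein coding, against 83% of all tested genes. The median peak was at 10.6 RPKM in progenitor, 0.829 in stem and 0.910 in niche, and 9 of 59 exceeded 10 RPKM in both of the latter. The median dip was at 4.87 RPKM in progenitor, 55.9 in stem and 46.3 in niche, and 80 of 84 exceeded 10 RPKM in both of the latter. Of all 8360 tested genes, 2904 exceeded 10 RPKM in both. By definition a peak lies above and a dip below both populations, so these levels follow in part from the rule. Median exon length was 1682 bases for peaks, 2586 for dips and 2744 for all tested genes. Since filters and tests depend on level, these figures describe the called genes and were not tested.

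Upstream sequence from RefSeq was matched by symbol for 40 of the 59 peaks, 56 of the 84 dips and 5764 of the tested genes. Both strands of the 250 bases before the start were searched. GAGGAAGT was present in 4 dips (7.14%), namely Ctsc, Ptgs1, Selenop and Vav1, in 1 peak (2.5%), in 2.52% of tested genes and in 2.44% of all 27025 promoters. GTTGCCATG was present in Sntn alone among the peaks (2.5%), in no dip, in 0.607% of tested genes and in 0.622% of all promoters. None of the 4 motifs searched contains another. CAGCTG was present in 5 peaks (12.5%), namely Aff2, C130071C03Rik, Gm16168, Tac2 and Tnni1, in 14 dips (25%), in 11.8% of tested genes and in 12.8% of all promoters. TATAAA was present in 4 peaks (10%), in 10 dips (17.9%), in 6.12% of tested genes and in 13% of all promoters. The median number of CG pairs in this window was 8.5 in peaks, 6 in dips and 15 in tested genes. A match is a run of letters and was not tested as a site.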

How the data were processed

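RNA of 1000 sorted cells per library was sequenced in 12 libraries. The deposited table holds, for each gene and library, log2 values that the authors computed as log2(RPKM + 1), as read from the values themselves. The genome build was GRCm38 (mm10), per the submitters' processing notes. The sources used here name no aligner, counting tool or strand setting, nor how genes were selected for the table. Undoing the logarithm gave whole reads for 100% of values above 0, within 1e-05 reads, at library totals of 7597256 to 22854036, where 3 reads equal 0.131 to 0.395 CPM. Gene lengths came from the annotation for 1232 genes and from the spacing of the values for 9278, and 239 genes were at 0 everywhere. For the 9278, the length was chosen so that all reads came out whole. The 100% is therefore no independent check for these genes.

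RPKM was rescaled by TMM factors, a pseudocount of 1 RPKM was added before log2, and 1 linear model over the 3 groups of 4 was fitted with limma 3.58.1 in R 4.3.3, with intensity trend and robust spread. Differences are on the log2(RPKM + 1) scale, which understates changes of low genes. The 8360 genes tested had at least 10 reads at the median library size (0.767 CPM) in at least 4 libraries and at least 15 in all. Calls used a Benjamini-Hochberg adjusted p under 0.05 over all tested genes. The fit was tested on simulated data.

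Named were the 20 peaks and 12 dips with the largest margin, up to 6 peaks or dips and up to 3 other genes called by the contrast from each gene list, and Egfr. Some genes that the rule names are not reported here. Others are named as chosen after their values were seen. The comparison, members and lists were chosen with earlier results of these data known. Same-numbered libraries of different groups correlated in their deviations from the group means at -0.13 to 0.21, not all over 0.1, so the numbers were not taken to pair libraries. Alternatives were scaling, pseudocount, filter, spread model, voom on the recovered reads, the replicate number as a block, and leaving out libraries. Ensembl gene identifiers were matched to symbols for 10579 of 10749 genes.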

Additional observations from a re-analysis of the deposited data

Results flagged for a closer look

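A single library lay far from the other 3 of its group for 22 values among 237 groups of 4 libraries examined (gap over range above Dixon's 0.829). For independent normal values, chance gives about 1 such group in 20. Some groups lie near 0, and where all other libraries are at 0 the ratio is 1 by construction. Most genes were also chosen for their differences, so no excess can be read from the count. Of the 22 values, 8 were in stem replicate 2. Its level was 1.276 RPKM for 2310016G11Rik (others at 0), 1.512 for Ccdc153 and 0.91 for Sntn (others at most 0.0857 and 0.0754), 136.5 for Clec4a2 (others at most 41.7) and 4698 for Pf4 (others at most 1318). It was low for Crmp1 at 7.164 (others at least 18.9), Dpysl5 at 2.982 (others at least 5.83) and Egfr at 24.73 (others at least 36.4).

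In the other stem libraries, replicate 1 held 1.285 RPKM of Neu4 and 0.7384 of Tnni1, replicate 3 held 20.75 of Dcn and 2.163 of Gm12945, and replicate 4 held 1.099 of Wnt8b, each above the rest of the group. Progenitor replicate 1 was high in the mural cell genes Cox4i2, at 211.2 RPKM against 53.5 to 60.5, and Vtn, at 1161 against 488 to 557.

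In niche, replicate 1 was high for Clec4a4 (130.6 RPKM) and low for Csf1r (188.4) and Thy1 (22.15). Replicate 2 was high for Pdlim3 (34.93, others at most 0.874). Replicate 3 was high for Gm24463 (4.418, others at 0) and low for Mobp (25.65), and replicate 4 was high for Dpysl5 (2.476). No explanation was tested.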

How the results depend on the processing

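With library totals in place of TMM, 419 genes were higher and 119 peaked, and with voom 331 were higher. Without progenitor replicate 1 and niche replicate 1 together, 380 were higher, 517 lower, 111 peaked and 161 dipped. Leaving out 1 library at a time gave 88 to 355 higher, 135 to 546 lower, 32 to 94 peaks and 54 to 147 dips, with the upper end of each range reached without niche replicate 1. Counts under the other alternatives stayed within 1.5 times the standard ones. Over the genes named by the rule and all alternatives, 1559 values of the contrast kept direction and side of the threshold, 142 kept the direction and missed the threshold, and none reversed. Nearly all of these genes were chosen for their differences in the same libraries, so the lack of reversals adds little. This tally leaves out the tests against stem and niche that define peaks and dips, whose calls were lost more widely: 23 of 59 peaks and 43 of 84 dips kept their class in all 21 alternatives, and Sema3c and 1500015O10Rik lost theirs in 12 and 13. The cause of these changes was not tested.

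With the replicate block, 191 genes were higher, 232 lower, 57 peaked and 91 dipped; 49 of the 59 peaks and 80 of the 84 dips kept their class. Depth limits low genes: 3 reads were 0.131 to 0.395 CPM. The SE values rest on the spread between libraries.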
